A study of Mus musculus with 6 samples.

Results

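The Y RNAs Rny1 and Rny3 and the vault RNA Vaultrc5 are 3 of the 30638 features counted, taken by their gene names in the authors' deposited table and found there once each. Small RNA was sequenced from hearts of 6 mice on a C57BL/6 background, 3 control and 3 knockout. Control mice are titled L/L and carry Elac2 with a loxP-flanked exon and no cre, although their genotype label reads Elac2 +/+. Knockout mice are titled L/L, cre and labelled Elac2 -/-. In them a cre recombinase under the muscle creatine kinase promoter, which is active in striated muscle, removed the exon, so that other cells of the heart would keep it. The labels give neither age nor sex. Libraries were selected for inserts of 15 to 100 nt, with 4 technical replicates per mouse. Each mouse has 1 deposited set of counts, called its library here. Total counts ranged from 13510061 to 16248673 per library. The labels could not be checked on Elac2 itself, whose mRNA was not analysed here.

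Y RNAs are small cytoplasmic RNAs made by RNA polymerase III from promoters outside the transcribed sequence. They form a long stem from their joined ends, which the Ro60 protein binds, and they end in a run of uridines that the La protein binds. Ro60 with its Y RNA takes part in the quality control of misfolded non-coding RNA. Vault RNA is also made by RNA polymerase III, from a tRNA-like promoter inside the gene, and is a part of the vault particle, whose shell is built of major vault protein. Elac2 encodes RNase Z, the enzyme that removes 3′ trailers from tRNA precursors of both nuclear and mitochondrial origin. The comparison asks how the small RNAs of the heart differ once this enzyme is lost from its muscle cells.

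The sequences of both Y RNAs are shown because they tell how far reads of one could be taken for the other. They are the transcripts of GENCODE M21 (GRCm38), with T for U, and capitals mark the stretches of at least 7 nt that are identical in the alignment of the pair.
Rny1: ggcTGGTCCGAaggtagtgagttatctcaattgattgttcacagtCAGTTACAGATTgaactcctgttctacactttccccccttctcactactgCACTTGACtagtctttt
Rny3: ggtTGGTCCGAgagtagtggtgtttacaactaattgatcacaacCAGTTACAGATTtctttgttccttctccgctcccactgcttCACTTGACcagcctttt
The pair matched at 80 of 112 alignment columns (71.4%). The 3 shared stretches were 8, 12 and 8 nt long, the outer ones near each end and the 12 nt stretch in the middle. In the structure predicted by RNAfold, the first 8 bases of each Y RNA paired without a gap with bases just before the 3′ end. Of the 8 bases in the shared stretch near the 5′ end, 3 paired with the shared stretch near the 3′ end in Rny1 and 5 in Rny3. The last 4 bases of each are T and were left unpaired. No match of at least 30 nt at 90% identity joined Rny1 and Rny3.

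Rny1 lies on chromosome 6 at positions 47788069 to 47788180 of GRCm38 on the minus strand, as a gene of 1 exon and 112 nt. Rny3 lies at 47781624 to 47781725 of the same chromosome on the plus strand, with 1 exon and 102 nt, and 6343 nt separate the pair. Between them the annotation holds the processed pseudogene Rpl31-ps7. Vaultrc5 lies on chromosome 18 at 36801866 to 36802008 on the plus strand, with 1 exon and 143 nt, and also ends in 4 T. The letters GGTTCGA, the core of the B box of internal promoters, were searched on both strands. Vaultrc5 held them 2 times on its own strand, and Rny1 and Rny3 held 0. Of 562 misc_RNA sequences, 3 (0.534%) held them, the others being Gm25403 and Gm23789. The count of annotated genes that overlap any of the 3 on either strand was 0. All 3 genes are longer than the 100 nt upper limit of the inserts, so the counts do not tell whole RNAs from fragments.

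Reads of all 3 RNAs fell in knockout hearts. Rny3 was 12.1 times lower, Rny1 4.40 times and Vaultrc5 2.84 times. All 3 of 3 passed the filter on low counts and were called lower in the quasi-likelihood test of edgeR, with p adjusted by Benjamini-Hochberg over 1144 features. The background of calls was high: 50.2% of the features tested were called in either direction and 27.0% were called lower. Higher calls made up 46.2% of all calls, and the scaling of the libraries moved this share: it was 28.3% with total counts alone, 20.1% with factors from snoRNA and scaRNA genes and 64.0% with factors from snRNA and nuclear rRNA genes. In bulk hearts, fewer cells that make an RNA and less of it per cell cannot be told apart.

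Rny1, the Y1 RNA, had the most counts of the 3. The control mice 1 to 3 gave 20078, 30639 and 35619 counts, and the knockout mice 1 to 3 gave 5245, 5095 and 4629. Scaled by TMM to counts per 1000000 (CPM), these were 1305, 1725 and 1945 CPM in control and 380.8, 403 and 348 CPM in knockout libraries. The lowest control library lay above the highest knockout library by a wide margin. The group means were 1658 ± 326 CPM (SD, n = 3) and 377 ± 27.5 CPM (SD, n = 3). The log2 fold change was -2.14 (SE 0.19, adjusted p = 4.11e-06 by edgeR), and 16.1% of features had a value as low or lower.

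Rny3, the Y3 RNA, had 7509, 16157 and 17406 counts in the control mice, in the same order, against 1103, 903 and 565 counts in the knockout mice. Its scaled values were 488, 910 and 951 CPM in control and 80.1, 71.4 and 42.5 CPM in knockout libraries. Control replicate 1 was low for its group and still stood far above every knockout library. The group means were 783 ± 256 CPM (SD, n = 3) and 64.7 ± 19.7 CPM (SD, n = 3). The log2 fold change was -3.60 (SE 0.32, adjusted p = 4.33e-06 by edgeR), and 10.7% of features had a value as low or lower.

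Vaultrc5, the vault RNA, had the fewest counts of the 3. Its counts were 337, 1000 and 807 in the control mice and 177, 185 and 207 in the knockout mice. Its scaled values were 21.9, 56.3 and 44.1 CPM in control and 12.9, 14.6 and 15.6 CPM in knockout libraries. The groups did not overlap, but control replicate 1 lay nearer to the knockout libraries than to control replicate 2. The group means were 40.8 ± 17.4 CPM (SD, n = 3) and 14.3 ± 1.38 CPM (SD, n = 3). The log2 fold change was -1.51 (SE 0.31, adjusted p = 0.00155 by edgeR), and 19.0% of features had a value as low or lower. With factors from snRNA and nuclear rRNA genes it was -0.92 (adjusted p = 0.0291), still called.

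**Figure D1:**
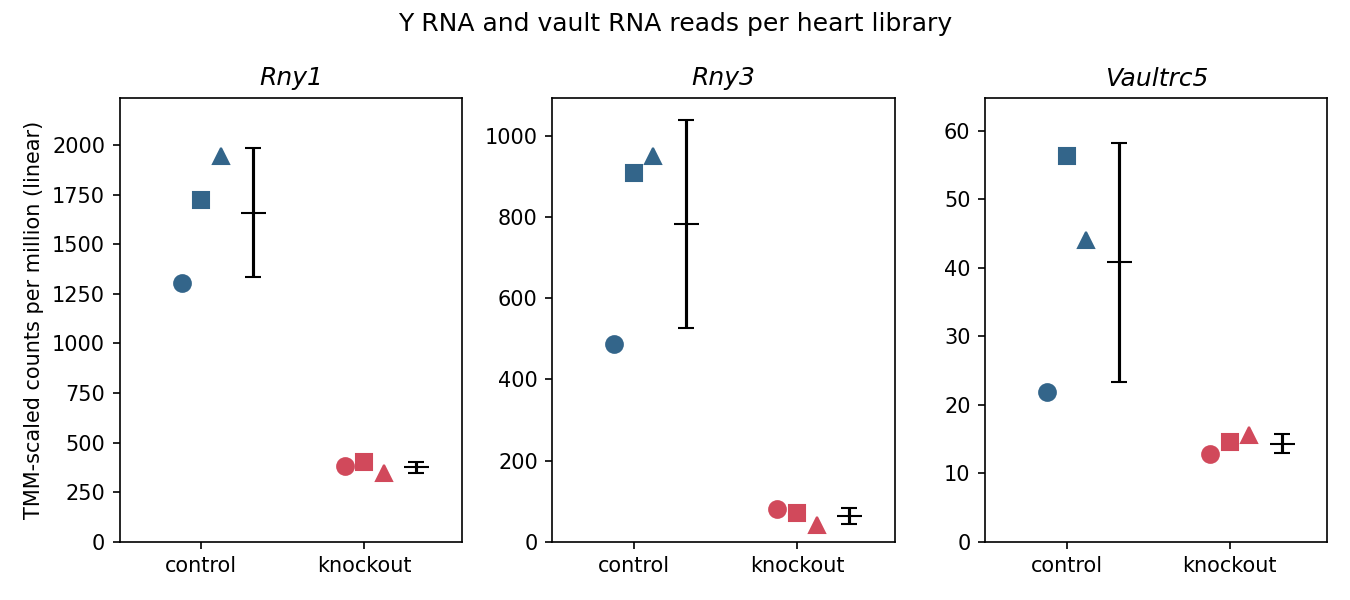
TMM-scaled counts in CPM (linear axis from 0) of Rny1, Rny3 and Vaultrc5 in each control (blue) and knockout (red) library; circle, square and triangle are replicates 1, 2 and 3, and the bar gives the group mean ± SD (n = 3). All knockout points lie below all control points in each panel, with the narrowest gap for Vaultrc5, from 15.6 to 21.9 CPM.

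All knockout libraries lay below all control libraries for each of the 3 RNAs, as they did for 33.7% of the features tested. Control replicate 1 was the lowest control library for all 3. It also had the lowest control share of mitochondrial tRNA counts, 3.70% against 7.28% and 6.13% in replicates 2 and 3, and of processed pseudogene counts, 0.0402% against 0.1004% and 0.0979%. The part of this in the results was not tested. Without that library the log2 fold changes were -2.21 for Rny1, -3.77 for Rny3 and -1.73 for Vaultrc5, and 908 of 1410 features were called.

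Per 100 nt of gene, Rny1 gave 1481 CPM, Rny3 767 CPM and Vaultrc5 28.5 CPM in control hearts. In knockout hearts these values were 337, 63.4 and 10.03 CPM, so the order stayed Rny1, Rny3, Vaultrc5.

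Each RNA was also compared as a share of all counts, which uses no scaling factor. Rny1 held 0.187% ± 0.0374 (SD, n = 3) of control counts and 0.0335% ± 0.00260 of knockout counts. Rny3 held 0.0880% ± 0.0285 and 0.00577% ± 0.00192, and Vaultrc5 0.00457% ± 0.00188 and 0.00127% ± 0.0000977. Together the Y RNAs went from 0.275% ± 0.0651 to 0.0393% ± 0.00451, a share 7.001 times smaller. Such shares move with the rest of the library: snoRNA and scaRNA counts took 39.3% to 42.6% of control and 61.7% to 64.1% of knockout counts. Among counts outside snoRNA, scaRNA, tRNA and mitochondrial features, the Y RNAs held 0.587% ± 0.156 and 0.112% ± 0.0171, a share 5.24 times smaller, Rny3 11.4 times, Rny1 4.17 times and Vaultrc5 2.70 times. The exact permutation test, two-sided, returned p = 0.1 for each of the 4 comparisons by either total (n = 3 per group; adjusted p = 0.1), the smallest p that 3 against 3 allow. For Vaultrc5 in control replicate 1, the exact Clopper-Pearson 95% interval of the share was 0.00224% to 0.00278%. Control replicates 2 and 3 held 0.00615% and 0.00506%, outside it. In the knockout mice 1 to 3 the Vaultrc5 shares were 0.00122%, 0.00121% and 0.00138%. All lay within the interval of knockout replicate 1, 0.00105% to 0.00141%, so counting error was not small beside that spread. Such an interval covers counting error only. The 3 RNAs made up 54.1% to 58.5% of all misc_RNA counts in control libraries and 59.8% to 64.2% in knockout libraries.

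Ratios within a library compare the falls of the 3 RNAs with each other. For each Rny3 count there were 2.67, 1.90 and 2.05 Rny1 counts in the control mice 1 to 3, but 4.75, 5.64 and 8.19 in the knockout mice. The groups did not overlap, and the ratio was 2.77 times higher in knockout hearts. The mean log2 ratio was 1.13 ± 0.26 (SD, n = 3) in control and 2.59 ± 0.40 in knockout hearts (SD, n = 3; exact two-sided permutation p = 0.1, adjusted over 2 ratios p = 0.1, the smallest possible). For each Vaultrc5 count there were 81.7, 46.8 and 65.7 Y RNA counts in the control mice 1 to 3, but 35.8, 32.3 and 25.0 in the knockout mice. These groups did not overlap either. How often ratios of other features separate the groups was not counted. The log2 ratio of Vaultrc5 to both Y RNAs was higher by 1.04 in knockout hearts (exact two-sided permutation p = 0.1, n = 3 per group; adjusted over 2 ratios p = 0.1). These ratios do not move with the scaling of a library, but with 3 mice per group these tests could not pass 0.05.

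**Figure D2:**
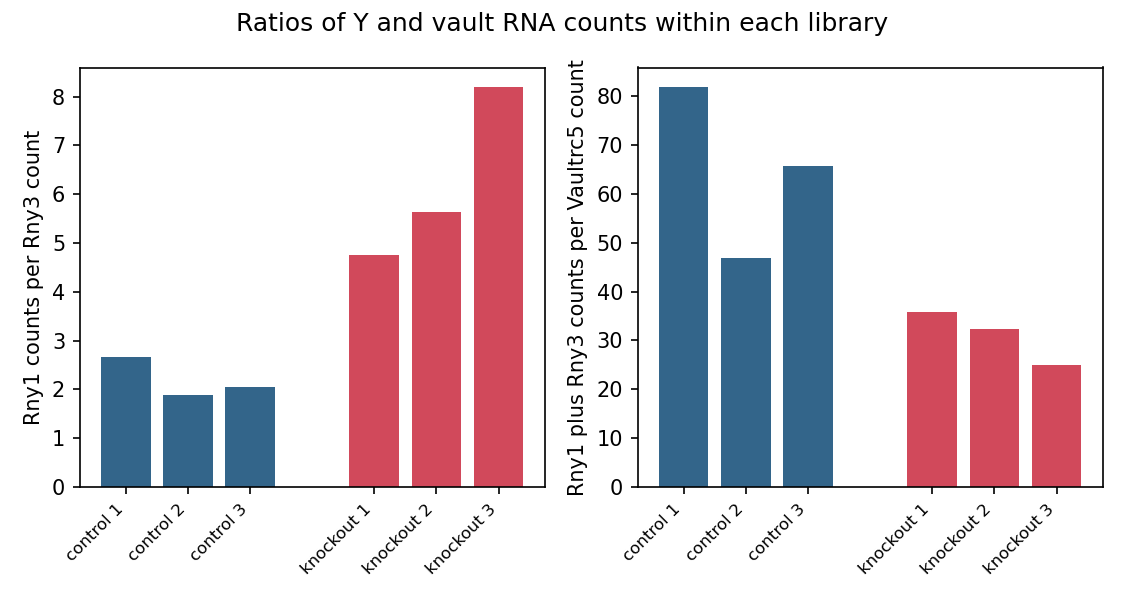
Rny1 counts per Rny3 count (left) and Y RNA counts per Vaultrc5 count (right) in each library (bars from 0; control blue, knockout red; replicates 1 to 3). The left ratio lies between 1.90 and 2.67 in control and between 4.75 and 8.19 in knockout libraries, and the right one between 46.8 and 81.7 and between 25.0 and 35.8.

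Features with near copies of Rny1 or Vaultrc5 held few counts. By BLASTN with at least 30 nt at 90% identity, 2 counted features matched Rny1, 0 matched Rny3 and 1 matched Vaultrc5. The copies held 376 counts over all libraries against 101305 for Rny1 (0.371%), and 9 against 2713 for Vaultrc5 (0.332%). Gm26168, the copy of Rny1 with 92.7% identity over 110 nt, was at 4.22, 7.43 and 5.62 CPM in control and 1.82, 1.58 and 1.28 CPM in knockout libraries. It fell too, by 1.88 on the log2 scale (SE 0.29, adjusted p = 0.000262 by edgeR), but how reads that match both a copy and its parent were counted is not stated, so its value is uncertain. The other copies, Gm26124 for Rny1 and Gm25403 for Vaultrc5, held 14 and 9 counts in all.

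A looser search, chosen after the values were seen, took at least 60 nt at 80% identity on the same strand. It left out the 3 RNAs themselves and gave each feature only to the RNA it matched best. By this rule 13 features went to Rny1, 0 to Rny3 and 1 to Vaultrc5. Of the 13, 9 had counts and 3 passed the filter. Gm22508 had a mean of 3.08 ± 1.22 CPM (SD, n = 3) in control and 0.684 ± 0.153 CPM in knockout hearts, and fell by 2.17 on the log2 scale (SE 0.39, adjusted p = 0.000635 by edgeR). Gm24372 was at 4.61, 4.05 and 4.21 CPM in control and 3.70, 4.51 and 4.14 CPM in knockout libraries. Its groups overlapped and it was not called (log2 fold change -0.06, SE 0.22, adjusted p = 0.835), although its sequence is 86.7% identical to Rny1 over 105 nt.

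Other features listed by gene name as RNA polymerase III transcripts were called lower, higher or not at all. The list held 180 copies of 5S ribosomal RNA, and whether each copy is transcribed was not tested. Of 188 such features outside the tRNAs, 69 passed the filter, of which 2 (2.9%) were called higher, 16 (23.2%) lower and 51 not called. Over all 1144 features 23.2% were called higher and 27.0% lower, so the share of lower calls was near the background. The median log2 fold change of the list was -0.53, beside -0.01 over all features, and equals that of the 5S ribosomal RNA copies, which were 63 of the 69. Rn7sk, the 7SK RNA that holds back the elongation factor P-TEFb, had a lower log2 fold change than any of the 3. It was at 989, 1605 and 1971 CPM in control and 69.6, 59.0 and 35.4 CPM in knockout libraries. Its log2 fold change was -4.80 (SE 0.33, adjusted p = 8.28e-07 by edgeR). Rmrp, the RNA of RNase MRP, was at 463, 338 and 377 CPM in control and 598, 508 and 479 CPM in knockout libraries. It was not called (log2 fold change 0.43, SE 0.18, adjusted p = 0.0691), and its value ranged from -0.18 with snoRNA-based factors to 0.91 with snRNA and rRNA factors (adjusted p = 0.0111, called), so its direction depends on the scaling. Rmrp was also called higher with no filter on low counts (0.76, adjusted p = 0.00585) and without control replicate 1 (0.64, adjusted p = 0.00681), knockout replicate 2 (0.68, adjusted p = 0.0245) or knockout replicate 3 (0.67, adjusted p = 0.0208).

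The other places of the naming rule went to copies of 5S ribosomal RNA, whose values are uncertain because how reads matching several copies were counted is not stated. These copies are also among the features that gave the snRNA and rRNA factors. Of 63 tested, 13 were called lower, 2 higher and 48 not called, and their log2 fold changes spanned -1.56 to 1.49 around a median of -0.53. The following genes of the list were named outside the rule, after their values were seen. The 7SL genes, whose RNA is the core of the signal recognition particle, gave log2 fold changes of -1.18 for Rn7s1 (adjusted p = 0.000646) and -1.07 for Rn7s2 (adjusted p = 0.00219, and 0.0707 with snRNA and rRNA factors). Rn7s6 was at 0.13 (adjusted p = 0.634) and Rpph1, the RNA of RNase P, at 0.14 (adjusted p = 0.577). Rn7s1 and Rn7s2 had means of 124 and 118 CPM in control and of 54.6 and 56.3 CPM in knockout hearts. How reads matching both were counted is not stated, so their calls may not be separate. The direction of Rn7s6 and Rpph1 depends on the scaling. The log2 fold changes of Rn7s6 and Rpph1 were -0.49 and -0.48 with snoRNA-based factors and 0.71 (adjusted p = 0.0306, called) and 0.63 (adjusted p = 0.0562) with snRNA and rRNA factors. Among tRNAs, which share the tRNA-like promoter with Vaultrc5, 48 of 124 mature features tested (38.7%) were lower and 15 (12.1%) higher, with a median of -0.45. Of 114 precursor features, 14 (12.3%) were lower and 43 (37.7%) higher, with a median of 0.21. These shares stand beside the 27.0% lower and 23.2% higher over all features. The U6 and U6-like genes of the list had counts but 0 passed the filter. In the misc_RNA class outside the 3 RNAs, 11 of 17 tested features (64.7%, beside 27.0% overall) were lower and 1 higher, Rn7sk among the lower ones. The lower ones also include Rn7s1, Rn7s2 and the Rny1-like Gm26168 and Gm22508, and those not called include Rn7s6 and the Rny1-like Gm24372. How reads matching both Rny1 and a copy, or both Rn7s1 and Rn7s2, were counted is not stated, so this share is uncertain.

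**Figure D3:**
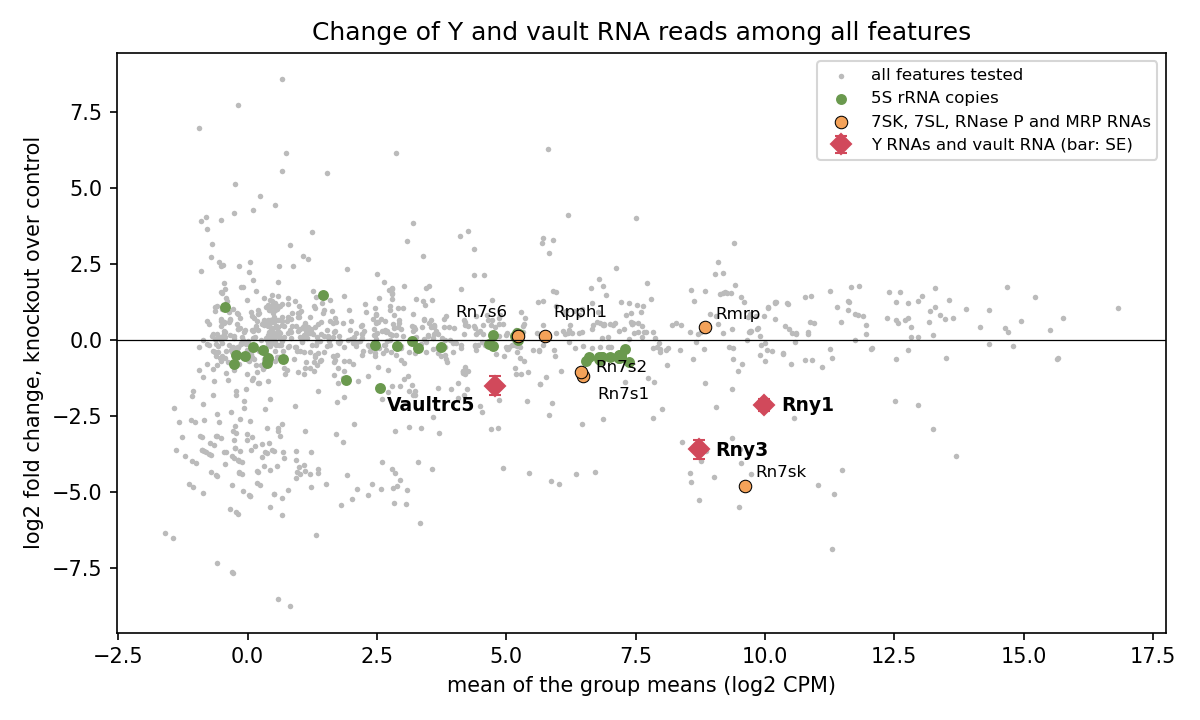
Log2 fold change (knockout over control) against the mean level (log2 CPM) for all 1144 features tested (grey), with the Y and vault RNAs (red, bar SE), 5S rRNA copies (green) and 7SK, 7SL, RNase P and RNase MRP RNAs (orange). Rny1, Rny3 and Vaultrc5 lie at -2.14, -3.60 and -1.51, above Rn7sk at -4.80 and below both called 7SL genes.

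The features whose profile over the 6 libraries was most like each RNA were mitochondrial RNAs or mature tRNAs. Likeness was the root mean square difference of log2 CPM, each feature centred on its own mean, among 478 features with a mean of at least 10 CPM. For Rny1 the nearest were the mature glycine tRNA Gly-CCC-3 (difference 0.149), the mitochondrial proline tRNA mt-Tp (0.183) and the mature aspartate tRNA Asp-GTC-1 (0.211). For Rny3 they were the complex I mRNA mt-Nd2 (0.198), the joined ATP synthase mRNA feature of Atp8 and Atp6 (0.201) and the serine tRNA mt-Ts2 (0.258). For Vaultrc5 they were the leucine tRNA mt-Tl1 (0.158), the isoleucine tRNA mt-Ti (0.233) and the mature tRNA Gly-CCC-1 (0.256). Rny1 and Rny3 lay farther from each other, at 0.783. Features that were called lower were often of these classes: of 109 called lower among the 478, 34 were mitochondrial and 26 were mature tRNAs, beside 35 and 41 among all 478. All profiles share the same libraries and scaling, so these values only describe them.

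The tissue label was checked with miRNA markers. All 7 heart muscle miRNAs of the list had counts, summing to 117768 to 147950 CPM in control and 72626 to 93228 CPM in knockout libraries, with 2 called lower and 1 higher. The 4 fibroblast miRNAs summed to 1156 to 1627 CPM in control and 2217 to 2344 CPM in knockout libraries, with 2 of 2 tested called higher and Mir199a-2 and Mir214 at 0. How reads matching several features were counted is not stated, so a count of 0 does not show that a miRNA was absent. Endothelial Mir126a summed to 19520 to 23749 against 17610 to 20960 CPM and smooth muscle miRNAs to 26656 to 33554 against 22059 to 30017 CPM, and these were not called. Red cell miRNAs summed to 2643 to 3694 against 2203 to 2920 CPM, with Mir486 called lower and Mir144 higher. The leukocyte miRNAs summed to 125 to 156 against 159 to 193 CPM, with Mir155 and Mir223 at 0. Of those tested, Mir150 was called lower (log2 fold change -0.59, adjusted p = 0.0368 by edgeR). Mir142 went the other way and was not called (log2 fold change 0.51, adjusted p = 0.0751 by edgeR). The part of these shifts in the fall of the Y and vault RNAs was not tested.

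In the authors' deposited table the log2 fold changes were -2.09 for Rny1 (adjusted p = 3.99e-25), -3.55 for Rny3 (adjusted p = 7.09e-34) and -1.46 for Vaultrc5 (adjusted p = 2.09e-05), from DESeq2. Across 14 alternatives of scaling, filter, tool, block and left-out library, each of the 3 RNAs was called lower in all 14. Of all features tested, the share called lower ranged over these alternatives from 7.65% with no filter on low counts to 46.7% with snoRNA-based factors. The log2 fold changes ranged from -2.75 to -1.60 for Rny1, from -4.20 to -3.09 for Rny3 and from -2.11 to -0.92 for Vaultrc5.

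**Figure D4:**
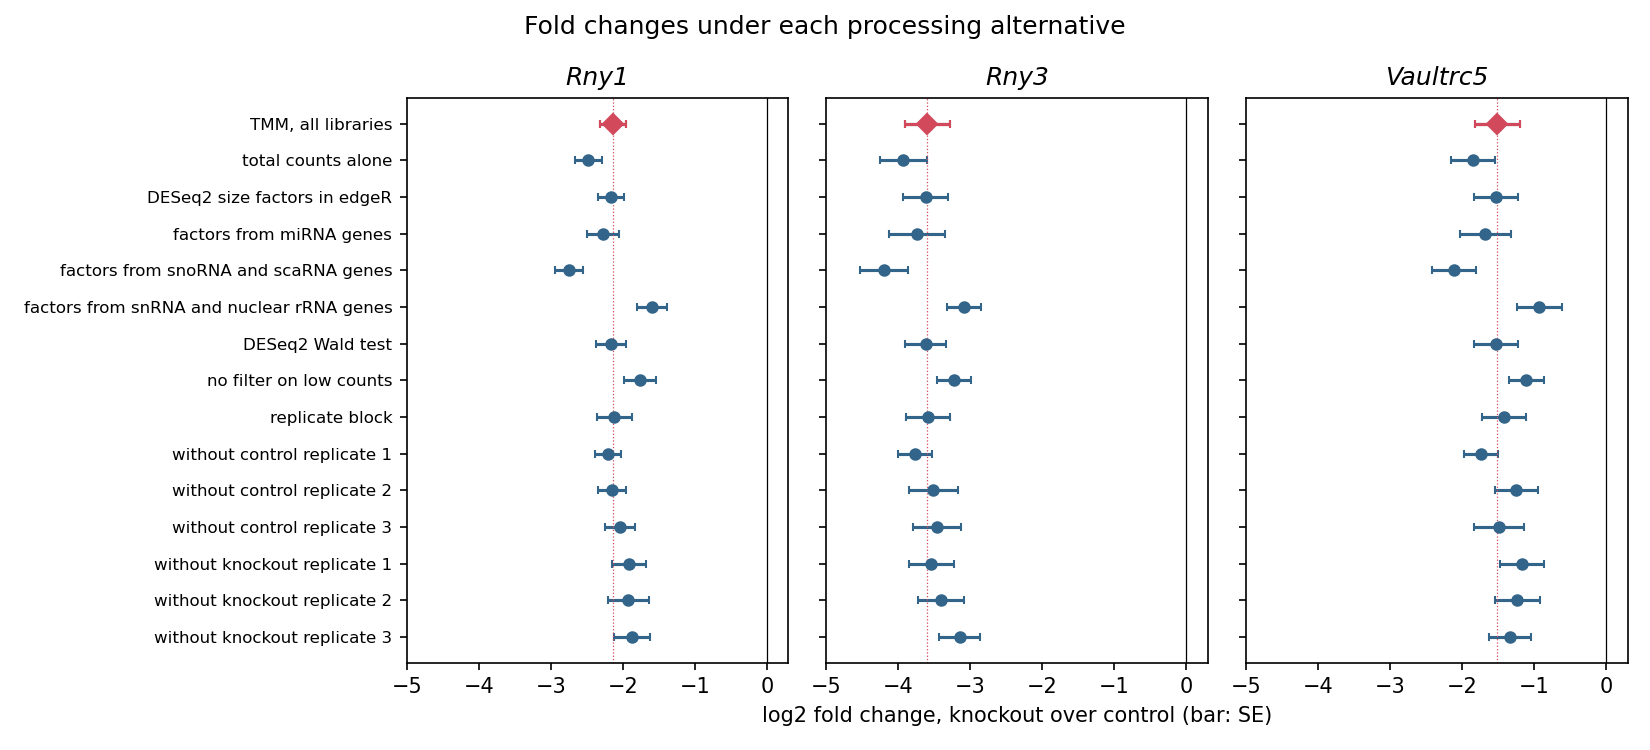
Log2 fold change (knockout over control, bar SE) of Rny1, Rny3 and Vaultrc5 with TMM factors and all 6 libraries (red) and under each of 14 processing alternatives (blue). All values lie below 0, and Vaultrc5 comes nearest to 0, at -0.92, with factors from snRNA and nuclear rRNA genes.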

How the data were processed

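Small RNA of 6 mouse hearts was sequenced in paired ends, with 4 technical replicates per mouse per the series' design text. Reads were handled with DESeq2 1.16.1, featureCounts 1.5.1, Bowtie2 2.2.9 and cutadapt 1.14 on mm10, per the submitters' processing notes. Not given in the sources used here are the annotation, the strand setting, the treatment of multiple alignments and the merging of the technical replicates. The authors deposited raw counts per feature, which were the input here. They also deposited normalized counts (a signal, not used in the tests) and a table with log2 fold changes, p-values and a Wald score, per the file headers. There were 0 columns of other samples.

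Features passing filterByExpr (minimum count 10, minimum total 15) were tested with edgeR 4.0.16 (glmQLFit, glmQLFTest, R 4.3.3) on TMM-scaled counts, knockout against control, with an adjusted p under 0.05 called. SE is the log2 fold change divided by the square root of F. These 1144 features held at least 99.89% of each library. No pair of libraries agreed within sampling noise (chi-square divided by its degrees of freedom at least 98.2). Ratios (0.5 added to each count) and shares were tested with exact permutation tests (SciPy 1.17.1). Sequences and positions came from GENCODE M21. Biopython 1.88 aligned the Y RNAs, RNAfold 2.7.2 predicted structures and BLASTN 2.17.0 found copies. Figures used matplotlib 3.10.9. Alternatives also used DESeq2 1.42.0.

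The named genes were the 3 RNAs, their near copies, the 12 most abundant tested RNA polymerase III genes of the list outside the tRNAs, and the 3 most alike features per RNA. The RNAs, lists and rules were chosen with earlier results of these data known.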

Additional observations from a re-analysis of the deposited data

How the results depend on the processing

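The direction and call of Rny1, Rny3 and Vaultrc5 held in all 14 alternatives, with adjusted p up to 0.000134, 8.00e-05 and 0.0291 by edgeR. Over these alternatives 7.65% to 46.7% of all features tested were called lower. The median log2 fold change of all features moved by -0.34 with total counts alone, -0.14 with miRNA-based, -0.61 with snoRNA-based and 0.52 with snRNA and rRNA factors, by 0.36 with no filter on low counts and by 0.21 to 0.24 without a knockout library. The number of features called was 574, and 1141 of 9254 with no filter. It ranged from 486 to 908 with 1 library left out, the highest without control replicate 1. With a library left out, the log2 fold changes ranged from -2.21 to -1.88 for Rny1, -3.77 to -3.15 for Rny3 and -1.73 to -1.17 for Vaultrc5. The log2 ratio of Rny1 to Rny3 was then higher in knockout hearts by 1.25 to 1.64, and that of Vaultrc5 to the Y RNAs by 0.85 to 1.25, where exact permutation p cannot go below 0.2. Same-numbered libraries had correlations of deviations of -0.134, -0.0163 and -0.192, so the numbers were not taken as pairs. With the replicate number as a block, 536 features were called and the values were -2.12, -3.59 and -1.41 for Rny1, Rny3 and Vaultrc5. Near copies added to the counts, an alternative chosen after seeing the data, gave log2 ratios of mean CPM of -2.13, -3.60 and -1.49, against -2.14, -3.60 and -1.51. Vaultrc5 rests on 177 to 1000 counts per library.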
